A study of Mus musculus with 2 samples.

Results

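Collagens are secreted or membrane proteins whose chains wind into a helix and assemble into the fibres, filaments and nets that hold a tissue together. This account covers every collagen gene outside type IV, the basement membrane type. Members were all gene symbols of the form Col, number, a, number in the deposited matrices, less the 6 type IV genes, which left 38 of 27998 genes. They comprised 11 fibrillar chains, 6 chains of beaded filament type VI, 9 fibril associated chains, 3 network forming chains, 1 anchoring fibril chain, 2 multiplexins, 4 transmembrane collagens and 2 others. The data were single-cell RNA counts from lungs of mice at postnatal day 10, with 1 library from a mutant whose label joins Nkx2-1 with Aqp5 and 1 library from a control whose label names Nkx2-1. The Nkx2-1 protein is a lineage transcription factor of lung epithelial cells. Aqp5 is a water channel gene active in the flat alveolar type 1 (AT1) cells, and its locus is known as a Cre driver. The labels give neither the alleles nor the strain nor how many animals were pooled. Both libraries were made from epithelial, immune, endothelial and mesenchymal cells purified by FACS, so the mixture of cells was set by the sort as well as by the lung.

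The mutant library held 4551 barcodes with a median of 8305 unique molecular identifiers (UMIs), and the control library 4461 barcodes with a median of 5943. After filters, 4233 mutant and 3971 control cells were used, and the libraries shared 27 barcode sequences. Levels are summed UMIs per 1000000 UMIs of a cell class (CPM). The 3' kit gives 1 tag per captured molecule, so levels were not divided by gene length. Intervals in parentheses are exact at 95% and cover counting error only. With 1 library per genotype there was no replicate check and no test, so a ratio compares these libraries, and a 2-fold difference is a rule of size. Cell classes were rebuilt by clustering without any collagen gene. Nkx2-1 had 13.9 CPM in the mutant and 487 CPM in the control AT1 compartment, the epithelial cells outside the alveolar type 2 (AT2), club and ciliated clusters. The tag lies at the gene's 3' end and does not check which part was deleted. That compartment took 2268 mutant and 570 control cells, and 5 of its clusters held at most 2 control cells each, so genotype, cluster and library cannot be told apart there. Those 5 clusters stayed unnamed, and only 171 mutant but 568 control cells lay in clusters named AT1-like. The largest, cluster 1 with 637 mutant cells, was led by Tff1, Lgals4 and Apoa1, and cluster 3 by Cdkn1a, Sprr1a and Tm4sf1. Cluster 4 was led by Kcne2, Akap5 and Sfn, cluster 6 by Calca, Cenpa and Ccnb2, and cluster 8 by Hist1h1b and Top2a. The compartment is thus named by exclusion, and most of its mutant cells were not AT1-like by the naming rule. Ager, an AT1 marker, had 1304 CPM in the mutant and 21733.5 CPM in the control compartment.

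In the developing lung, fibroblasts and myofibroblasts lay down type I and type III collagen, the main fibrils of vessel walls, airway sheaths and alveolar septa. Type V and related minor chains start and limit those fibrils, fibril associated collagens coat them, and type VI forms a beaded net between cells and fibrils. Multiplexins sit at basement membranes, and transmembrane collagens stay on the cell surface.

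Collagen RNA lay almost wholly in mesenchymal cells of both libraries. These cells held 94.99% (94.8 to 95.2) of all member UMIs in the mutant and 93.8% (93.6 to 93.99) in the control, while making up 23.9% of mutant and 27.2% of control cells. Summed over all members, mesenchymal cells had 10144 CPM in the mutant and 9661 CPM in the control, a ratio of 1.05 (1.04 to 1.06). The direction of that ratio turned without cycling cells (log2 ratio -0.0385) and with equal weight of subclasses (-0.11). Of the 38 genes, Col10a1 and Col19a1 had no UMI, 8 had 1 to 19 UMIs over both libraries, 7 had 20 to 99 and 21 had at least 100. Of the 28 genes with at least 20 UMIs, 24 had their highest level in mesenchymal cells. The other 4 (Col8a2, Col6a5, Col23a1 and Col26a1) were highest in airway epithelium.

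**Figure D1:**
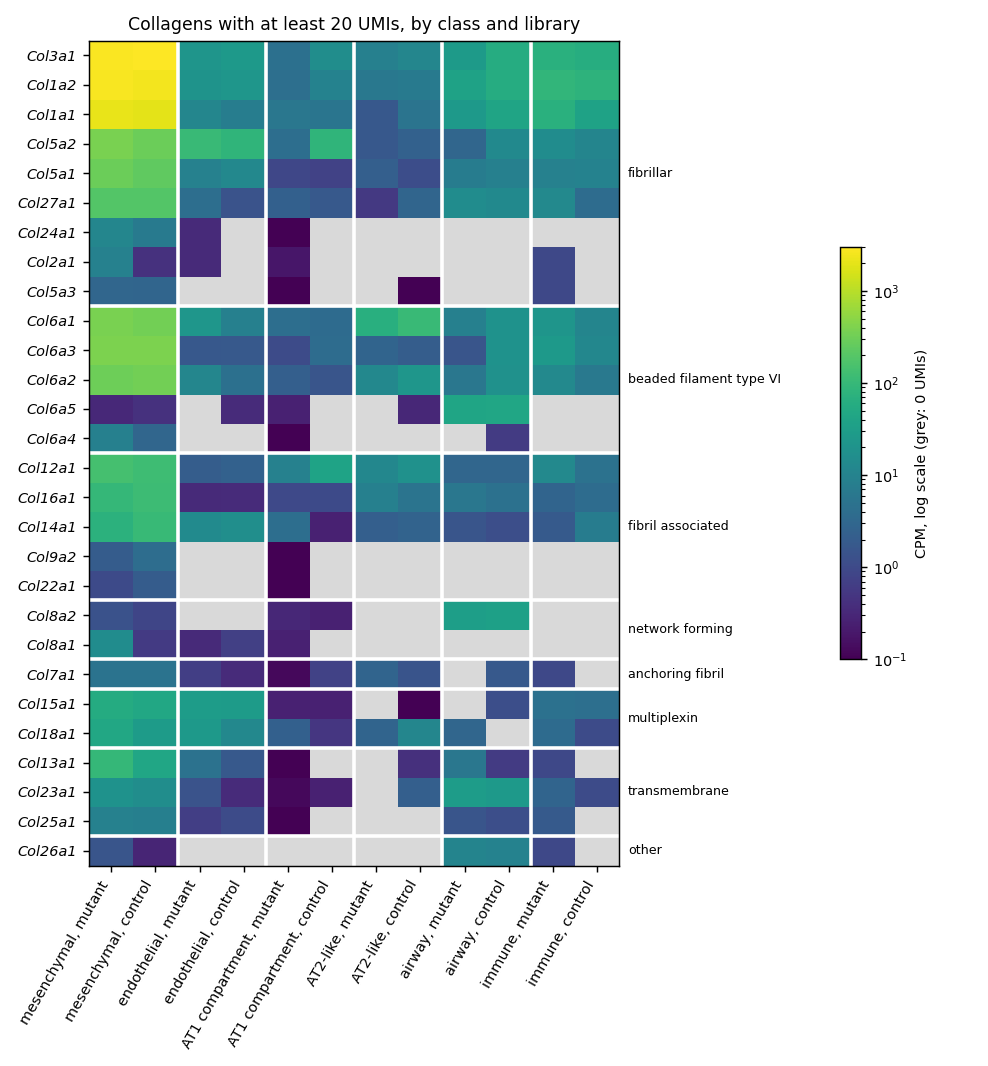
Level of each collagen with at least 20 UMIs (rows, grouped by collagen kind) in 6 cell classes of the mutant and control library (columns), as CPM on a log colour scale, with grey for 0 UMIs. The mesenchymal columns are the brightest for 24 of the 28 genes, and Col8a2, Col6a5, Col23a1 and Col26a1 are brightest in airway cells.

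Mesenchymal cells of the 2 genotypes differed little in the abundant collagens. Of 25 members with at least 20 UMIs there, 4 were at least 2-fold higher in the mutant (Col13a1, Col6a4, Col2a1 and Col8a1), against 6.9% of all 12100 genes measured in these cells. Another 2 (Col9a2 and Col22a1) were at least 2-fold lower, against 2.58% of all genes. The other 19 lay within 2-fold, and the median log2 ratio of the 25 was 0.12, beside 0.04 over all genes. Both lower genes rested on few molecules, with 12 mutant and 28 control UMIs of Col9a2 and with 6 mutant and 14 control UMIs of Col22a1, and both ratio intervals reached 1. Among the 3 most abundant members, Col1a1 and Col1a2 were slightly higher and Col3a1 slightly lower in the mutant.

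Col3a1, the chain of type III collagen, lies on the plus strand of chromosome 1 from 45311538 to 45349706 in the GENCODE annotation of GRCm38, the assembly also called mm10. It had 2828 CPM (2786 to 2871) in mutant and 2924 CPM (2884 to 2964) in control mesenchymal cells, a ratio of 0.967 (0.948 to 0.987). Col1a2, the second chain of type I collagen, lies on the plus strand of chromosome 6 from 4504814 to 4541544. It had 2681 CPM in mutant and 2478 CPM in control cells, a ratio of 1.08 (1.06 to 1.11). Col1a1, the main type I chain, lies on the plus strand of chromosome 11 from 94936224 to 94953042. Its level was 2096 CPM in mutant and 1931 CPM in control cells, a ratio of 1.09 (1.06 to 1.11). After thinning each cell to 1500 UMIs, 82.9% (80.4 to 85.2) of mutant and 73.1% (70.3 to 75.7) of control mesenchymal cells had a Col1a1 UMI, against 97.7% and 91.9% before thinning. The thinned share in lymphoid cells, which should lack the gene, was 3.70% in the mutant and 0.442% in the control, with median depths of 5434 and 4574 UMIs against 5495 and 6043 in mesenchymal cells. The per-cell median of Col1a1 was 1473 CPM in mutant and 1130.3 CPM in control mesenchymal cells, a wider gap than in the summed level. The 5 richest control cells held 1559 of 13451 Col1a1 UMIs, beside 961 of 12549 in the 5 richest mutant cells.

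The start regions of 4 members that the results turn on are shown, 2 of them the most abundant chains with an entry, 1 the type VI chain of AT2-like cells and 1 the chain most restricted to alveolar fibroblast-like cells. RefSeq promoter windows on GRCm38.p6 were available for 30 of the 38 members and run from 250 bases before to 50 bases after an annotated start. Each is written from 5′ to 3′ on the gene's strand, with matches to 3 motifs in capitals. The motifs, searched on both strands, were the CCAAT box, the TATA box spelled TATAAA, and the GC box spelled GGGCGG. The Col1a2 window lies inside the GENCODE span of the gene, since the annotations place its start differently. The start used for the Col6a1 window also lies inside that gene's GENCODE span, which runs from 76708792 to 76726168.
Col1a2, chr6:4505368-4505667, plus strand: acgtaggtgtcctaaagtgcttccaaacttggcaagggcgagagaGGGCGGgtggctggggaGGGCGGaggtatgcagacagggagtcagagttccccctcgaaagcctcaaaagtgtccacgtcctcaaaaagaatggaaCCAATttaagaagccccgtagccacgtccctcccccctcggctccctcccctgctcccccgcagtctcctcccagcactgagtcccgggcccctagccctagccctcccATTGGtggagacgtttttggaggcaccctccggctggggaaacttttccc
Col3a1, chr1:45311288-45311587, plus strand: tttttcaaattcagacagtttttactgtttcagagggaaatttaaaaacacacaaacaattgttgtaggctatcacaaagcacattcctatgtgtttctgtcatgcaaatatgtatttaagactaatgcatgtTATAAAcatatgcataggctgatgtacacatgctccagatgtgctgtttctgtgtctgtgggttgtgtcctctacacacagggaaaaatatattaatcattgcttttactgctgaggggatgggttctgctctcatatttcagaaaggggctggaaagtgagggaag
Col6a1, chr10:76725995-76726294, minus strand: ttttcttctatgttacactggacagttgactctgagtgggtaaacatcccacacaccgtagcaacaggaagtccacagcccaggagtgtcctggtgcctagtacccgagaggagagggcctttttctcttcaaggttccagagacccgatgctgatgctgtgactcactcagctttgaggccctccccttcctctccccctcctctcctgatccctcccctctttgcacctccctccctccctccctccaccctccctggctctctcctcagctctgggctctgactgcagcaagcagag
Col13a1, chr10:61979059-61979358, minus strand: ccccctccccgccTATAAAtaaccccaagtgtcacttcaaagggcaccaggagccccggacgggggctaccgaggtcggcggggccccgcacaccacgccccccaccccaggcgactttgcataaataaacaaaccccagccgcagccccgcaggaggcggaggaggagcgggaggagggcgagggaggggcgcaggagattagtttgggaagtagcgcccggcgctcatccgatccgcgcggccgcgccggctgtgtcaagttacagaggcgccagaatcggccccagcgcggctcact
Col1a2 held the CCAAT box at 1 place on each strand and the GC box at 2 places, Col3a1 and Col13a1 each held the TATA box at 1 place, and Col6a1 held no match to these letters. The CCAAT box was in 30.3% of the 33 windows of members and in 37.4% of all 32851 windows. The TATA box was in 15.2% of member windows and 13.6% of all windows, and the GC box in 57.6% of member windows and 35.7% of all windows. A match is a string of letters and not a measured binding site.

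The minor fibrillar chains were at lower levels. Col5a2 and Col5a1, chains of the type V collagen that sits inside type I fibrils and limits their width, were both higher in the mutant. Col5a2 had 371 CPM in mutant and 294 CPM in control mesenchymal cells, a ratio of 1.26 (1.19 to 1.34). Col5a1 had 300 CPM in mutant and 244 CPM in control cells, a ratio of 1.23 (1.15 to 1.31). Col27a1, a fibrillar chain best known from cartilage, had 188 CPM in mutant and 194 CPM in control cells. Col24a1, a fibrillar chain best known from bone, had 11.5 CPM in mutant and 7.03 CPM in control cells, a ratio of 1.64 (1.12 to 2.41). Col5a3 had 18 mutant and 20 control UMIs, while Col11a1 and Col11a2 stayed under 20 UMIs in all.

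Col2a1, the main fibrillar chain of cartilage, had few molecules and a large ratio. It had 56 UMIs in mutant and 3 in control mesenchymal cells, or 9.35 CPM (7.07 to 12.1) and 0.431 CPM (0.0888 to 1.26), a ratio of 21.7 (7.06 to 108). The mutant UMIs came from 46 of 1012 cells, with at most 5 UMIs in a cell. Of these UMIs 27 lay in cluster 6, an unnamed cluster of 162 mutant cells and 1 control cell led by Ibsp, Stc1 and Piezo2. Of the 10 chondrocyte markers in the matrices, 5 had a UMI in mutant and 3 in control mesenchymal cells, and their summed level was 22.2 CPM in the mutant and 14.8 CPM in the control. Comp, Matn1, Matn3, Lect1 and Ucma were at 0 UMIs in both. Sox9, which cartilage shares with other tissues, made up 15.4 CPM of the mutant and 6.32 CPM of the control sum, and Matn4 5.18 CPM of the mutant and 8.33 CPM of the control sum.

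The 3 abundant type VI chains lay close between the libraries, and Col6a4 did not. Type VI collagen is built from a chain each of Col6a1, Col6a2 and Col6a3, with Col6a4, Col6a5 and Col6a6 as relatives of Col6a3. Col6a3 had 390 CPM in mutant and 400 CPM in control mesenchymal cells, Col6a1 had 373 CPM in mutant and 340 CPM in control cells, and Col6a2 had 307 CPM in mutant and 340 CPM in control cells. Their ratios ran from 0.903 to 1.10. Col6a4 had 54 mutant and 21 control UMIs, or 9.02 CPM and 3.01 CPM, a ratio of 2.99 (1.78 to 5.22). Of the mutant Col6a4 UMIs 25 lay in cluster 6, and of the control ones 11 in cluster 2, an unnamed cluster of 4 mutant and 244 control cells. Col6a6 had 11 mutant and 4 control UMIs in these cells.

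Among fibril associated chains, Col12a1 was higher and Col14a1 and Col16a1 were lower in mutant mesenchymal cells. Col12a1, which bridges fibrils in tissues under tension, had 144 CPM in mutant and 121 CPM in control cells, a ratio of 1.20 (1.09 to 1.32). Col14a1, its close relative, had 74.997 CPM in mutant and 106 CPM in control cells, a ratio of 0.708 (0.628 to 0.797). Col16a1 had 95.7 CPM in mutant and 115 CPM in control cells, a ratio of 0.829 (0.744 to 0.924). Col9a1, Col9a3, Col19a1 and Col20a1 had at most 15 UMIs each over all cells.

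Col8a1, a network forming chain of vessel walls and of Descemet's membrane, had the largest measured ratio. It had 89 UMIs in mutant and 4 in control mesenchymal cells, or 14.9 CPM (11.9 to 18.3) and 0.574 CPM (0.156 to 1.47), a ratio of 25.9 (9.76 to 97.1). Of the mutant UMIs 66 lay in cluster 10, an unnamed cluster of 28 mutant and 39 control cells led by Fabp7, Col8a1 itself, Adora1 and Megf6. Within that cluster Col8a1 had 440 CPM in mutant and 13.7 CPM in control cells, a ratio of 32.3 (10.6 to 160), and 19 of 28 mutant and 2 of 39 control cells held a UMI. The cells of the 2 libraries thus differed in Col8a1 within 1 shared cluster. Col7a1, the anchoring fibril chain, had 5.01 CPM in mutant and 5.17 CPM in control mesenchymal cells.

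Of the multiplexins and transmembrane collagens, Col13a1 was the only 1 past 2-fold in mesenchymal cells as a whole. Col18a1, whose C-terminal fragment is endostatin, had 47.6 CPM in mutant and 28.3 CPM in control mesenchymal cells, a ratio of 1.68 (1.40 to 2.03). Col15a1, the other multiplexin, had 56.5 CPM in mutant and 47.5 CPM in control cells. Col13a1, a transmembrane collagen of cell adhesions, had 96.4 CPM (88.7 to 105) in mutant and 44.4 CPM (39.5 to 49.6) in control cells, a ratio of 2.17 (1.89 to 2.503). Col23a1 had 18.9 CPM in mutant and 15.5 CPM in control cells, and Col25a1 had 9.35 CPM in mutant and 8.61 CPM in control cells, both with ratio intervals that included 1. Col17a1, the hemidesmosomal chain of stratified epithelia, had 6 mutant and 9 control UMIs over all cells.

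**Figure D2:**
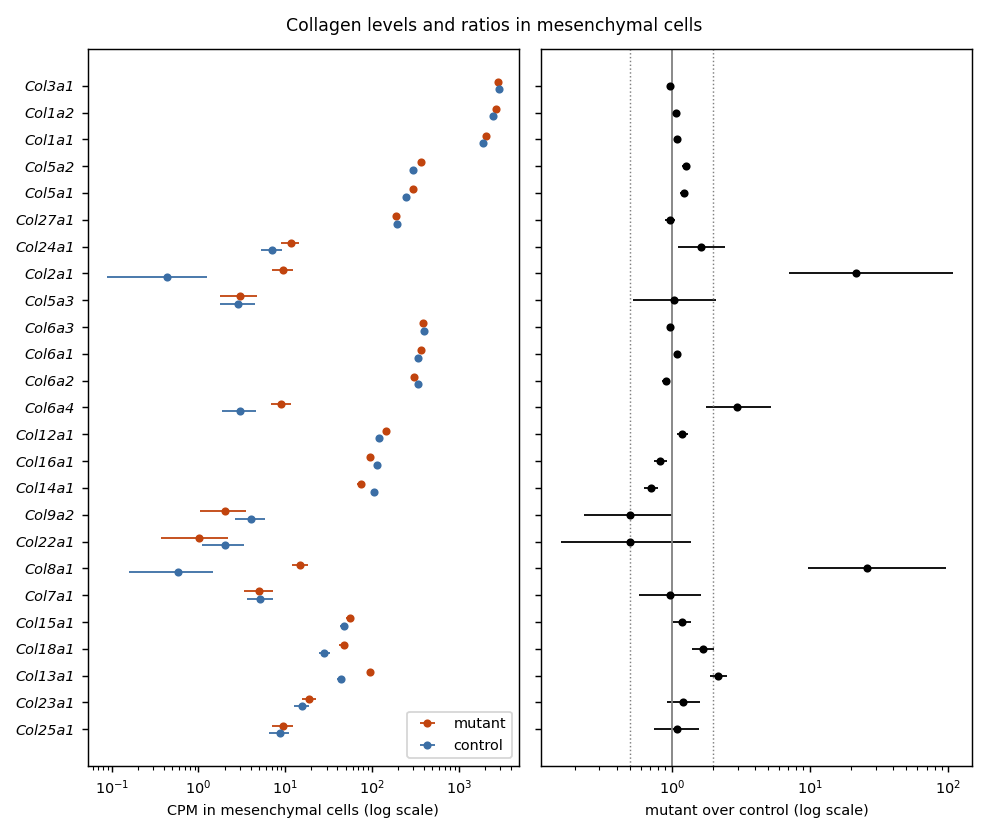
CPM of the 25 measured collagens in mesenchymal cells of the mutant and control library (left, log scale) and the mutant over control ratio (right, log scale), with exact 95% counting intervals. Dotted lines mark 2-fold in each direction, past which lie Col13a1, Col6a4, Col2a1 and Col8a1 on the higher side, with Col9a2 and Col22a1 at the lower line.

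Mesenchymal subclasses differed far more from each other than the libraries did. Adventitial fibroblast-like cells, which resemble the fibroblasts around large vessels and airways, were the collagen-rich extreme. Summed over all members they had 43120 CPM in the mutant (39 cells) and 51229 CPM in the control (49 cells). Among the 5 named subclasses they had the highest level of each of the 8 members with the most mesenchymal UMIs, in both libraries. None of 15 members measured in them passed 2-fold between the libraries, beside 6.51% of all genes on the higher and 6.18% on the lower side. Their Col3a1 level was 14483 CPM in mutant and 15336 CPM in control cells. The Col1a1 level was 10147 CPM (9755 to 10552) in mutant and 14868 CPM (14458 to 15286) in control cells, a ratio of 0.683 (0.650 to 0.716). Col1a2 had 12537 CPM in mutant and 14722 CPM in control cells, a ratio of 0.852 (0.814 to 0.891). In this subclass type I chains were thus lower in the mutant, the opposite direction to the whole mesenchyme.

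Among members with at least 20 UMIs in the adventitial fibroblast-like subclass, Col14a1 had the largest ratio over other mesenchymal cells as a mean of both libraries on the log2 scale, although in the control alone Col1a1 and Col7a1 had larger ones. It had 967 CPM in mutant and 781 CPM in control cells, 26.6 times (22.0 to 32.1) the other mutant and 10.9 times (9.32 to 12.7) the other control mesenchymal cells. Outside it, Col14a1 differed between the libraries in alveolar myofibroblast-like cells. These had 45.1 CPM in the mutant and 161 CPM in the control, a ratio of 0.280 (0.218 to 0.355), and 5.04% of mutant and 17.6% of control cells held a Col14a1 UMI after thinning, against 15.7% and 49.5% before. In lymphoid cells, Col14a1 had 1 mutant and 5 control UMIs.

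Alveolar myofibroblast-like cells, the contractile cells of growing septa, numbered 337 in the mutant and 380 in the control. Of 16 members measured in them, 3 were at least 2-fold higher in the mutant (Col24a1, Col18a1 and Col6a4), against 7.71% of all genes, and Col14a1 was the only 1 at least 2-fold lower, against 4.14%. Their leading member was Col12a1, with 375 CPM in mutant and 299 CPM in control cells, 9.86 and 9.03 times the other mesenchymal cells of the same library. Col1a1 and the type V chains had ratios above 1 but within 2-fold. Col1a1 had 2653 CPM in mutant and 1837 CPM in control cells, a ratio of 1.44 (1.39 to 1.51). Col5a1 had 483 CPM in mutant and 328 CPM in control cells, a ratio of 1.48 (1.34 to 1.63), and Col5a2 had 513 CPM in mutant and 401 CPM in control cells. Col3a1 was nearly level, at 3609 CPM in mutant and 3479 CPM in control cells, as was Col27a1, at 313 CPM in mutant and 309 CPM in control cells. Different clusters held these cells in the 2 libraries: cluster 3 had 229 mutant cells and 1 control cell, cluster 1 had 295 control cells and no mutant cell, and cluster 5 had 108 mutant and 84 control cells. The part of that split in the ratios was not tested. With all 6 clusters nearest to the myofibroblast markers pooled, a choice made after seeing the data, Col1a1 had a ratio of 1.55 (1.495 to 1.60), Col5a1 of 1.52 (1.41 to 1.64), Col12a1 of 1.44 (1.31 to 1.59) and Col14a1 of 0.341 (0.270 to 0.428).

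Alveolar fibroblast-like cells, named from Tcf21 and related markers, numbered 218 in the mutant and 133 in the control. Col13a1 marked them, with 411 CPM (377 to 447) in mutant and 360 CPM (318 to 405) in control cells. That was 40.2 times (29.9 to 55.2) the other mutant and 55.9 times (40.0 to 80.0) the other control mesenchymal cells. A Col13a1 UMI was found in 87.2% of mutant and 85.0% of control cells, against 2.97% and 1.05% of alveolar myofibroblast-like cells. After thinning the alveolar fibroblast-like shares were 46.8% in the mutant and 33.1% in the control. Within this subclass the mutant over control ratio of Col13a1 was 1.14 (0.984 to 1.33), far below the 2.17 of the whole mesenchyme. Other surface collagens gathered here too: Col23a1 had 66.8 CPM in mutant and 86.9 CPM in control cells, and Col25a1 had 38.1 CPM in mutant and 64.2 CPM in control cells, a ratio of 0.593 (0.390 to 0.902). Col18a1 had 67.6 CPM in mutant and 120 CPM in control cells, a ratio of 0.561 (0.413 to 0.762), opposite in direction to the 2.75 (1.57 to 4.99) of alveolar myofibroblast-like cells. None of 16 measured members passed 2-fold here, beside 7.26% of all genes on the higher and 1.95% on the lower side.

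Mural cells carried less collagen. Smooth muscle-like cells (20 mutant and 18 control cells) had 1198 CPM of Col3a1 in the mutant and 906 CPM in the control. Their leading member was Col6a3, at 482 CPM in mutant and 522 CPM in control cells, 1.24 (0.953 to 1.59) and 1.31 (1.05 to 1.62) times the other mesenchymal cells. Col12a1 was the only 1 of 11 measured members past 2-fold in these cells, on 20 mutant and 12 control UMIs, beside 9.96% of all genes on the higher and 11% on the lower side. Pericyte-like cells (84 mutant and 136 control cells) had 1151 CPM of Col3a1 in the mutant and 1109 CPM in the control. Col1a1 had 433 CPM in mutant and 212 CPM in control pericyte-like cells, a ratio of 2.04 (1.61 to 2.60). It was the only 1 of 11 measured members past 2-fold there, beside 6.77% of all genes on that side and 4.65% on the lower side. Their leading member was Col7a1, with 10 mutant and 14 control UMIs, though adventitial fibroblast-like cells had more per UMI, at 48.4 CPM in the mutant and 44.7 CPM in the control.

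The other 5 of the 8 members with the most mesenchymal UMIs filled in the order of the subclasses. Col6a3 had 947 CPM in mutant and 1052 CPM in control adventitial fibroblast-like cells, and 63.4 CPM in mutant and 51.6 CPM in control pericyte-like cells. In alveolar fibroblast-like cells Col6a3 had 435 CPM in the mutant and 598 CPM in the control, a ratio of 0.728 (0.641 to 0.826), whereas alveolar myofibroblast-like cells were level at 484 CPM in the mutant and 493 CPM in the control. The subclasses thus differed more in Col6a3 than the libraries did.
Col6a1 had 907 CPM in mutant and 1019 CPM in control adventitial fibroblast-like cells and 543 CPM in mutant and 511 CPM in control alveolar fibroblast-like cells. Col6a2 was lower in the mutant in both, at ratios of 0.780 (0.661 to 0.919) and 0.809 (0.707 to 0.927), but it had a ratio of 1.15 (1.03 to 1.29) in alveolar myofibroblast-like cells. Pericyte-like cells had 118 CPM of Col6a2 in the mutant and 149 CPM in the control.
Of the type V and VI chains named here, Col5a1 differed most between alveolar fibroblast-like and myofibroblast-like cells, though less than Col13a1 and Col12a1. It had 105 CPM in mutant and 96.3 CPM in control alveolar fibroblast-like cells, below the 152 CPM in mutant and 147 CPM in control pericyte-like cells. Col5a2 varied less, with 335 CPM in mutant and 308 CPM in control alveolar fibroblast-like cells and 326 CPM in mutant and 269 CPM in control pericyte-like cells.

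**Figure D3:**
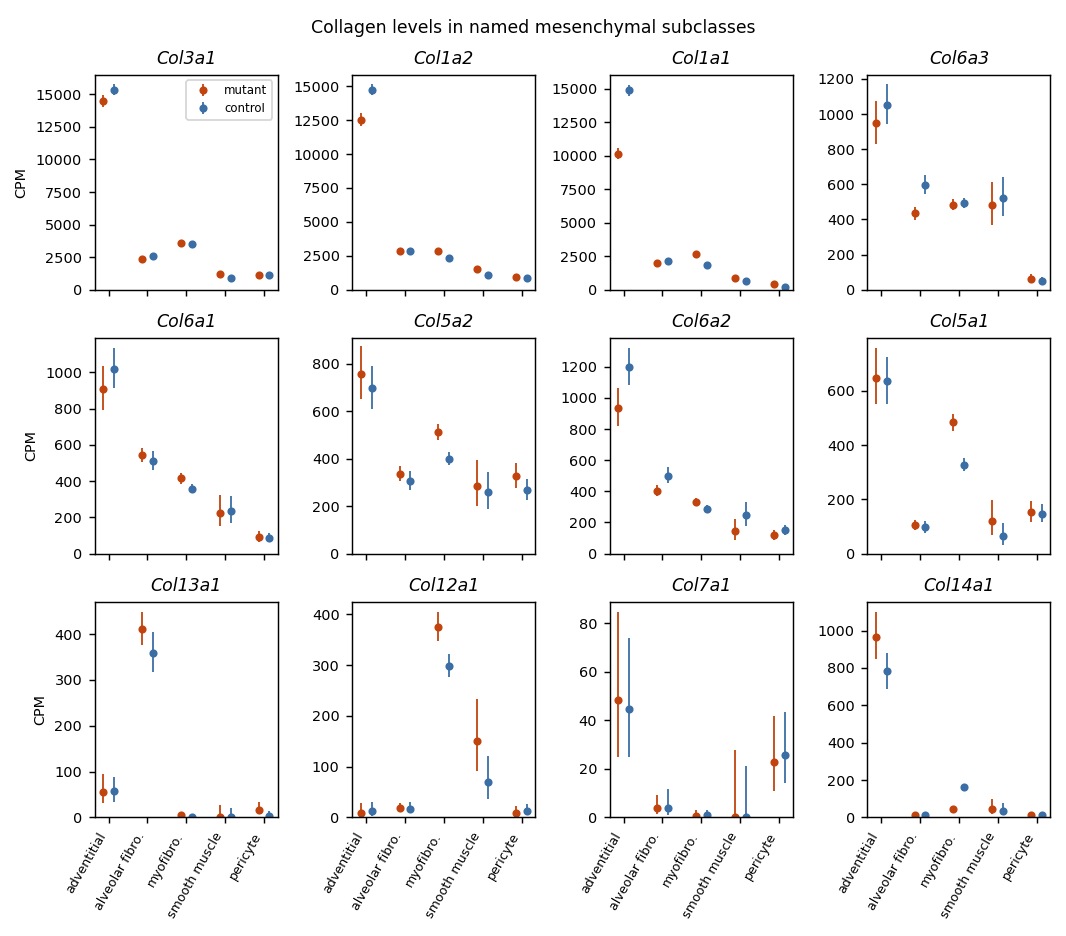
CPM of the 8 members with the most mesenchymal UMIs and of the members that lead a subclass, in 5 named mesenchymal subclasses of the mutant and control library, with exact 95% Poisson intervals. Adventitial fibroblast-like cells are highest for Col3a1, Col1a2 and Col1a1, Col13a1 stands out in alveolar fibroblast-like cells and Col12a1 in myofibroblast-like cells.

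Chain ratios within a library do not depend on the class total. Type I collagen is mostly made of Col1a1 and Col1a2 chains, and over all mesenchymal cells there were 0.782 (0.764 to 0.8003) Col1a1 UMIs per Col1a2 UMI in the mutant and 0.779 (0.762 to 0.797) in the control. Subclasses departed from that common value in both directions. Pericyte-like cells had 0.445 (0.373 to 0.529) in the mutant and 0.239 (0.193 to 0.294) in the control, and adventitial fibroblast-like cells had 0.809 (0.768 to 0.853) in the mutant and 1.01 (0.971 to 1.05) in the control. Alveolar myofibroblast-like cells had 0.936 (0.900 to 0.973) in the mutant and 0.777 (0.746 to 0.809) in the control. For each Col1a1 UMI, pericyte-like cells held 2.66 (2.25 to 3.16) Col3a1 UMIs in the mutant and 5.23 (4.28 to 6.45) in the control, the largest such value among named mesenchymal subclasses in each library. In type V, alveolar fibroblast-like cells had 0.312 Col5a1 UMIs per Col5a2 UMI in the mutant and 0.313 in the control, whereas alveolar myofibroblast-like cells had 0.943 in the mutant and 0.818 in the control. Adventitial fibroblast-like cells had 0.856 in the mutant and 0.910 in the control, below myofibroblast-like cells in the mutant and above them in the control.

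**Figure D4:**
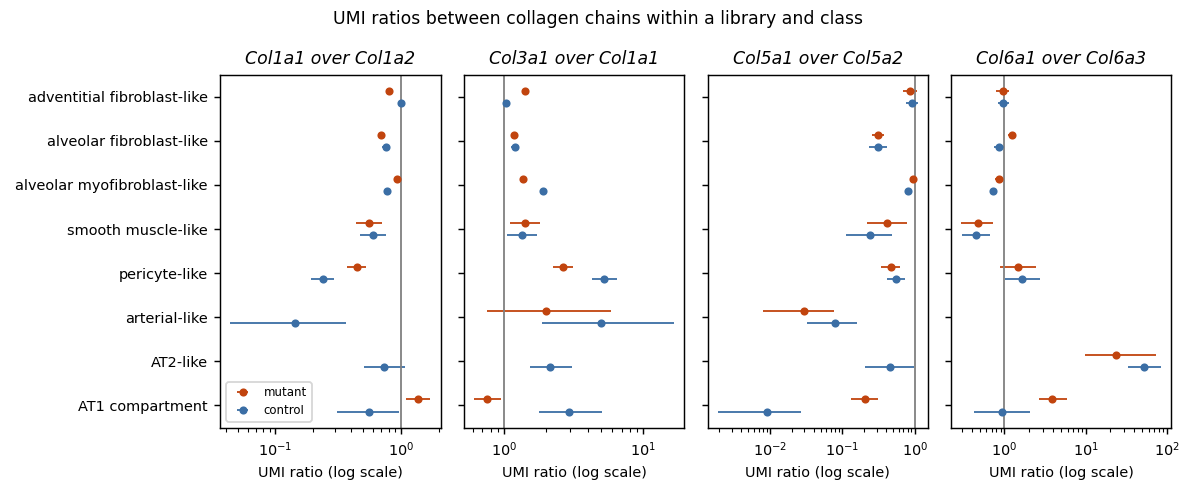
UMI ratio between pairs of collagen chains (horizontal axes, log scale) in named classes (rows) of the mutant and control library, with exact 95% counting intervals and pairs with too few UMIs left out. The Col5a1 over Col5a2 ratio is 0.312 in mutant and 0.313 in control alveolar fibroblast-like cells and the Col6a1 over Col6a3 ratio is 23.8 in mutant and 52.05 in control AT2-like cells.

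Epithelial cells had low levels of a few collagens. In the AT1 compartment the members summed to 49.0 CPM (46.6 to 51.5) in the mutant and 170 CPM (158 to 184) in the control, a ratio of 0.288 (0.263 to 0.316). The median log2 ratio of the 13 members measured was 0.16, beside 0.16 over all genes, with 7 higher and 6 lower in the mutant. The lower sum was thus not shared by most members. Of 13 members measured, 5 were at least 2-fold lower in the mutant (Col3a1, Col5a2, Col6a3, Col1a2 and Col12a1), against 12.1% of all genes, and 2 were at least 2-fold higher (Col18a1 and Col14a1), against 22% of all genes. The summed level of 17 mesenchymal markers moved with them, at 112 CPM in the mutant and 317 CPM in the control compartment. The summed level of 14 endothelial markers differed more, at 62.5 CPM in the mutant and 304 CPM in the control compartment. Cell cycle genes differed as well, with 21 of 22 S phase genes and all 23 genes of G2 and M phase at least 2-fold higher in the mutant compartment. The part of these in the result was not tested. Lymphoid cells, as a measure of free RNA, had 22.9 CPM of Col5a2 (8 UMIs) in the mutant and 2.49 CPM (3 UMIs) in the control. They had 2 Col12a1 UMIs in the mutant and none in 226 control cells, which allows a share of up to 1.33% of cells with a UMI.

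In the control compartment Col5a2 had the most UMIs of any member, whereas in the mutant it lay below Col12a1, Col1a1, Col3a1 and Col1a2. Col5a2 had 4.23 CPM (3.55 to 5.01) in mutant and 84.2 CPM (75.3 to 93.8) in control compartment cells, a ratio of 0.0503 (0.0408 to 0.0616). After thinning, 0.705% (0.404 to 1.14) of mutant and 10.2% (7.82 to 12.96) of control cells had a Col5a2 UMI, against 4.89% and 33.2% before. Its partner chain Col5a1 was scarce in control compartment cells, with 3 UMIs beside 327 of Col5a2, a ratio of 0.00917 (0.00188 to 0.0270), against 0.831 in control mesenchymal cells. In the mutant compartment there were 28 Col5a1 UMIs beside 134 of Col5a2, a ratio of 0.209 (0.134 to 0.316). In AT1-like clusters alone Col5a2 had 9.81 CPM in 171 mutant cells and 84.3 CPM in 568 control cells. Col12a1 had 9.19 CPM in mutant and 39.9 CPM in control compartment cells, a ratio of 0.230 (0.189 to 0.282). In AT1-like clusters alone it was higher in the mutant, at 57.5 CPM (46.1 to 70.9) against 40.0 CPM (33.9 to 46.8) in the control, and the thinned shares were 5.85% and 5.99% of cells. Those clusters compare mostly cluster 9 in the mutant (168 cells) with cluster 2 in the control (508 cells). Col3a1, Col1a2 and Col1a1 had 4.58, 4.39 and 6.03 CPM in mutant compartment cells, against 120, 100 and 68.8 CPM in mutant lymphoid cells. That lymphoid level rested on 5 cells, and the 3 genes together came to 290 CPM with them and 12.98 CPM without them. Col14a1 had 132 mutant UMIs against 1 in the control compartment, a ratio of 16.2 (2.86 to 644), at 4.17 CPM in the mutant. The 15 mutant cells with a Col14a1 UMI after thinning were 0.661% of 2268.

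AT2-like cells, the surfactant makers, carried type VI chains with little of their usual partner Col6a3. Col6a1 had 67.0 CPM (55.5 to 80.1) in mutant and 107 CPM (101 to 114) in control AT2-like cells, a ratio of 0.625 (0.512 to 0.756). Different clusters held these cells in the 2 libraries: cluster 7 had 200 mutant and 86 control cells, cluster 0 had 7 mutant and 826 control cells, and cluster 5 had 15 mutant and 349 control cells. The part of that split in the AT2-like ratios was not tested. Col6a2 had 12.4 CPM in mutant and 22.2 CPM in control cells, a ratio of 0.557 (0.342 to 0.865). Col6a3 stayed at 2.81 CPM in mutant and 2.06 CPM in control cells, with 5 and 20 UMIs. There were thus 23.8 (9.92 to 74.6) Col6a1 UMIs per Col6a3 UMI in mutant and 52.05 (33.5 to 85.6) in control AT2-like cells, against 0.955 in mutant and 0.851 in control mesenchymal cells. After thinning, 7.66% (4.52 to 11.98) of mutant and 14.3% (12.4 to 16.3) of control AT2-like cells had a Col6a1 UMI, beside 1.85% of mutant and 1.33% of control lymphoid cells. Before thinning the AT2-like shares were 33.3% and 45.3%. The median log2 ratio of the 13 members measured in these cells was -0.55, beside 0.21 over all genes. Of them, 3 were at least 2-fold lower in the mutant (Col27a1, Col18a1 and Col1a1), against 4.49% of all genes, and none was 2-fold higher, against 8.03%. All 3 rested on few mutant UMIs, from a mutant class of 1776782 UMIs beside 9708709 in the control. Col1a1 had 51 UMIs in control AT2-like cells. Col18a1 had 2.81 CPM (5 UMIs) in mutant and 11.1 CPM (108 UMIs) in control AT2-like cells, a ratio of 0.253 (0.0805 to 0.609).

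Airway cells held the members that were not highest in mesenchyme as a whole. Col6a5 and Col8a2 belonged to ciliated-like cells of both libraries. Col6a5 had 87.5 CPM (28 UMIs) in 50 mutant and 85.7 CPM (74 UMIs) in 106 control ciliated-like cells, a ratio of 1.02 (0.636 to 1.60). A UMI was seen in 34.0% of mutant and 37.7% of control ciliated-like cells, or in 7 of 50 and 13 of 106 cells after thinning, beside 0 of 54 mutant and 0 of 226 control lymphoid cells. Col8a2 had 65.6 CPM in mutant and 67.2 CPM in control ciliated-like cells, a ratio of 0.977 (0.563 to 1.63), and it had no UMI in 222 mutant and 1261 control AT2-like cells. Col26a1 had 21.9 CPM (7 UMIs) in mutant and 18.5 CPM (16 UMIs) in control ciliated-like cells. Col23a1 had 55.7 CPM (19 UMIs) in 24 mutant and 44.3 CPM (36 UMIs) in 39 control club-like cells, a ratio of 1.26 (0.681 to 2.25). Alveolar fibroblast-like cells had more Col23a1 than club-like cells, at 66.8 CPM in the mutant and 86.9 CPM in the control. Intervals of the mutant over control ratios of these 4 genes all included 1.

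Over all airway cells, 5 of 13 measured members were at least 2-fold lower in the mutant (Col3a1, Col5a2, Col6a3, Col6a2 and Col6a1), against 5.62% of all genes, and none was 2-fold higher, against 9.81%. With mitochondrial counts held under 5%, the log2 ratio of Col6a1 turned to 0.27. The 5 lower members were chains of mesenchymal cells, and few cells carried them. In ciliated-like cells, 5 mutant cells held all 15 Col3a1 UMIs and 5 control cells held 81 of 87. The 17 mesenchymal markers summed to 295 CPM in mutant and 859 CPM in control airway cells, and their part in the result was not tested.

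Endothelial cells had Col5a2 as their leading member. It had 108 CPM in mutant and 85.7 CPM in control cells, a ratio of 1.26 (1.06 to 1.49). The level was highest in arterial-like cells, at 786 CPM (659 to 930) in 26 mutant and 441 CPM (360 to 536) in 48 control cells, a ratio of 1.78 (1.37 to 2.33). After thinning, 73.1% (52.2 to 88.4) of mutant and 33.3% (20.4 to 48.4) of control arterial-like cells had a Col5a2 UMI, against 88.5% and 56.2% before. Venous-like cells had 257 CPM in the mutant and 289 CPM in the control. As in AT1 cells, Col5a1 was scarce, with 0.0294 (0.0079 to 0.077) UMIs per Col5a2 UMI in mutant and 0.0784 (0.0330 to 0.160) in control arterial-like cells. Col14a1 gathered in venous-like cells, at 134 CPM in 34 mutant and 151 CPM in 27 control cells.

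Of 10 members measured over all endothelial cells, 3 were at least 2-fold higher in the mutant (Col6a2, Col6a1 and Col18a1), against 7.42% of all genes, and none was 2-fold lower, against 1.93%. Col18a1 had 26.5 CPM in mutant and 12.3 CPM in control cells, a ratio of 2.15 (1.42 to 3.30). In venous-like cells the direction was the other way, at 85.6 CPM in the mutant and 144 CPM in the control, a ratio of 0.593 (0.291 to 1.18). Most endothelial cells lay in clusters of mainly 1 library, with 261 mutant and 4 control cells in cluster 1 and 4 mutant and 360 control cells in cluster 0. Col18a1 had 23.5 CPM in the mutant cells of cluster 1 and 2.46 CPM in the control cells of cluster 0, and the part of that split in the endothelial ratios was not tested. Col15a1 had 29.3 CPM in mutant and 28.6 CPM in control cells. Col6a1 had 22.7 CPM in mutant and 8.82 CPM in control cells, a ratio of 2.58 (1.61 to 4.27). With the lymphoid level subtracted as free RNA, the log2 ratio came to -0.38 for Col6a1 and to -1.501 for Col6a2. For both genes the mutant lymphoid level, on few UMIs (8 for Col6a1), was above the mutant endothelial level. No mutant level was then left, so a floor of 3 counts stood in for it and these values show no direction. Of the mutant Col6a1 UMIs, 55 of 66 lay in Car4 capillary-like cells, the capillary type that faces AT1 cells. There Col6a1 had 111 CPM (83.7 to 145) in 72 mutant and 29.3 CPM (15.6 to 50.2) in 86 control cells, with a UMI in 29.2% of mutant and 12.8% of control cells, or 9.72% and 3.49% after thinning. Col6a3 had 3 UMIs in those mutant cells.

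**Figure D5:**
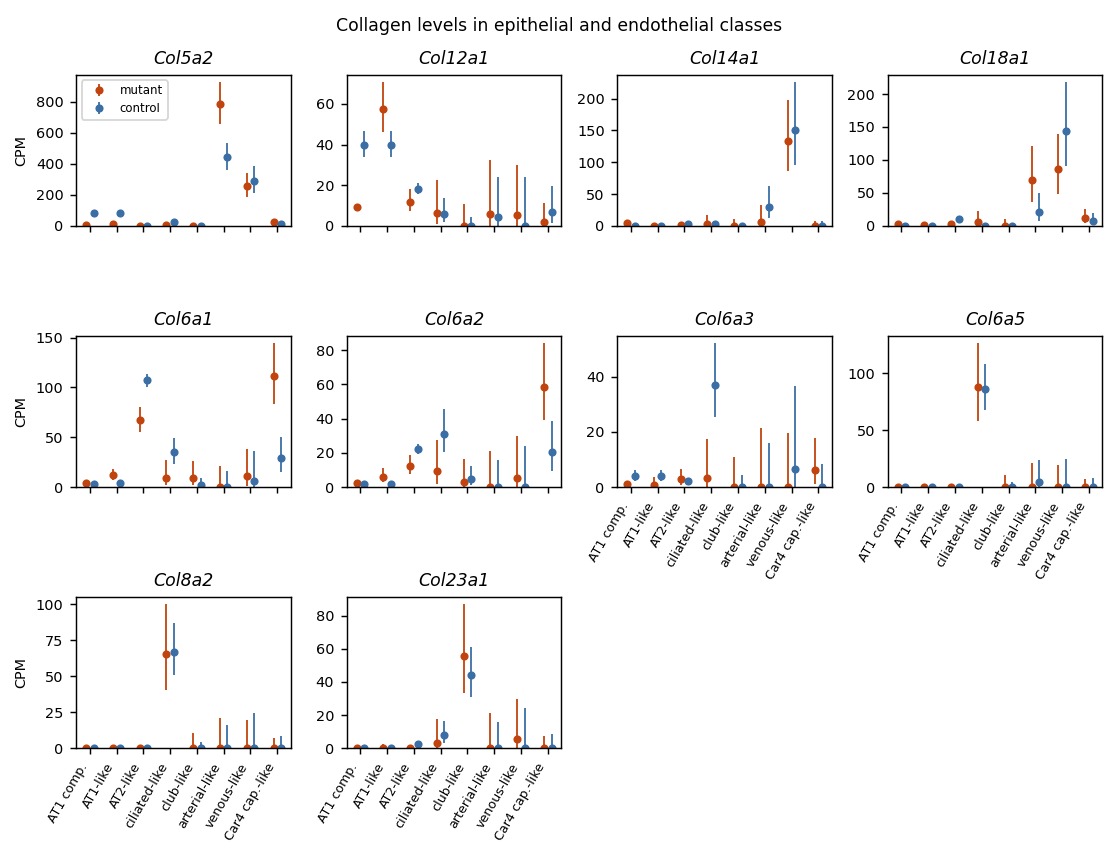
CPM of 10 collagens in epithelial and endothelial classes of the mutant and control library, with exact 95% Poisson intervals. Col5a2 is lower in the mutant AT1 compartment and higher in mutant arterial-like cells, Col6a1 is lower in mutant AT2-like and higher in mutant Car4 capillary-like cells, and Col6a5 and Col8a2 appear in ciliated-like cells of both libraries.

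Immune cells gave no steady picture. Of 10 measured members 4 were at least 2-fold higher in the mutant (Col6a3, Col27a1, Col6a2 and Col12a1), against 7.68% of all genes, and none was 2-fold lower, against 6.22%. All 4 rested on few UMIs, with 27 mutant and 22 control UMIs of Col6a3 and 14 mutant and 12 control UMIs of Col6a2. Col12a1 had most of its UMIs in monocyte-like cells (10 mutant and 5 control), and Col27a1 had at most 5 in any subclass of a library. The class was made up differently, with 54 lymphoid and 116 other cells in the mutant and 226 lymphoid and 103 other cells in the control, and the part of that in the count was not tested. The log2 ratio turned to -1.87 for Col6a3 and -0.78 for Col6a2 with the lymphoid level subtracted, and to -0.19 for both Col6a2 and Col12a1 at clustering resolution 2. Col6a2 was also at -0.19 with collagens in the clustering. Type I and III chains were concentrated in few cells of each group but the control lymphoid cells. In mutant lymphoid cells, 5 of 54 cells held 97 of 101 UMIs of Col1a1, Col1a2 and Col3a1, and in mutant myeloid and other immune cells 5 of 116 cells held 135 of 144. In control myeloid and other immune cells 5 of 103 cells held 251 of 291, while in control lymphoid cells 5 of 226 held 8 of 41 and no cell held more than 2.

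Genes that process and bind collagen were set beside the members, from lists chosen with earlier results of these data known. None of 20 measured genes for modifying enzymes, chaperones and secretion was past 2-fold in mesenchymal cells, against 6.9% of all genes on the higher and 2.58% on the lower side, and their median log2 ratio was -0.37, beside 0.04 over all genes. Sparc, a collagen-binding glycoprotein, had 3959 CPM in mutant and 5515 CPM in control cells, a ratio of 0.718 (0.706 to 0.730). Serpinh1, the collagen chaperone HSP47, had 878 CPM in mutant and 1368 CPM in control cells, a ratio of 0.642 (0.620 to 0.664). P4ha2, a prolyl hydroxylase subunit, and P3h1, a prolyl 3-hydroxylase, had the lowest ratios of that list, 0.522 (0.383 to 0.704) and 0.627 (0.545 to 0.720).

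Among genes of propeptide cleavage, 1 of 5 was past 2-fold on the higher side, against 6.9% of all genes: Adamts14 had 62 mutant and 23 control UMIs, a ratio of 3.14 (1.92 to 5.30). Adamts2, the main N-propeptidase, had 303 CPM in mutant and 324 CPM in control cells, and Pcolce, an enhancer of C-propeptide cleavage, had 192 CPM in mutant and 248.6 CPM in control cells. None of 5 crosslinking genes was past 2-fold, against 6.9% of all genes on the higher and 2.58% on the lower side. Lox, the lysyl oxidase, had 153 CPM in mutant and 107 CPM in control cells, a ratio of 1.43 (1.29 to 1.57), whereas its relative Loxl1 had 511 CPM in mutant and 639 CPM in control cells, a ratio of 0.799 (0.763 to 0.837). Loxl2 had 350 CPM in mutant and 314 CPM in control cells.

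Of 13 fibril binding genes, 2 were at least 2-fold higher in the mutant, against 6.9% of all genes, Vcan at a ratio of 2.14 (1.93 to 2.37) and Fn1 (fibronectin) at 2.06 (1.98 to 2.15). The proteoglycans Bgn and Aspn had the most UMIs and lower mutant levels, at 1551 CPM in mutant and 2044 CPM in control cells for Bgn, and at 1011 CPM in mutant and 1605 CPM in control cells for Aspn. Of 7 collagen receptor genes 2 were past 2-fold on the higher side, also against 6.9%. Itgb1, the shared beta chain of collagen-binding integrins, had 903 CPM in mutant and 436 CPM in control cells, a ratio of 2.07 (1.98 to 2.17), and Itga1, an alpha chain that pairs with it, had a ratio of 2.77 (2.37 to 3.23). Ddr2, a receptor kinase for fibrillar collagen, had a ratio of 1.13 (1.03 to 1.25). Of 10 genes of collagen breakdown, 1 was at least 2-fold higher, against 6.9% of all genes, and none was 2-fold lower, against 2.58%. The higher gene was Timp4, at 2.74 (1.99 to 3.798), while Timp3 and Timp2, also metalloproteinase inhibitors, had ratios of 1.72 (1.61 to 1.84) and 1.12 (1.06 to 1.18). Of the 6 type IV genes, Col4a3 and Col4a4 were at least 2-fold lower, against 2.58% of all genes, on 8 mutant and 35 control UMIs and on 15 mutant and 47 control UMIs, and Col4a2 and Col4a1 had ratios of 1.47 and 1.34.

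The AT1 compartment differed from the mesenchyme in these genes as well. Of 21 modifying genes measured there, 13 were at least 2-fold lower in the mutant, against 12.1% of all genes, and 1 (Mia3) was at least 2-fold higher, against 22%, with a median log2 ratio of -1.90 beside 0.16 over all genes. Sparc had 734 CPM in mutant and 7525 CPM in control compartment cells, and Serpinh1 had 154 CPM in mutant and 785 CPM in control cells. Plod2, a lysyl hydroxylase, had 4.86 CPM in mutant and 143 CPM in control cells, a ratio of 0.0339 (0.0282 to 0.0406). All 6 type IV genes were at least 2-fold lower there.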

How the data were processed

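Single-cell RNA libraries of 1 mutant and 1 control mouse lung preparation were made with the 10x 3' v2 kit, per the labels' protocols. The authors deposited whole-number UMI counts per gene and cell barcode. Per the submitters' processing notes, Cell Ranger, Seurat and mm10 were used, with versions not given in the sources used here. Per library, barcodes with at least 500 detected genes and under 10% mitochondrial counts were kept. Doublets were scored against simulated doublets and left out (89 mutant and 79 control), as were 96 mutant and 91 control cells of mixed clusters. Cells were clustered on 2000 variable genes without collagens (30 components, 20 neighbours, Leiden resolution 1). Clusters were named from marker lists, with a mean log2 fold of at least 1.5, at least 3 markers seen and no lead by another type's markers among the top 10 genes, and in a second pass against the named clusters of the same lineage. Most clusters of mutant AT1 compartment cells stayed unnamed, and differences from the study may come from rebuilt names.

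UMIs were summed by class and library and divided by the class total. A gene was measured in a class with at least 20 UMIs over both libraries. Against 0 UMIs, a floor of 3 counts was used. Intervals were exact (Poisson for levels, Clopper-Pearson for shares, conditional binomial for ratios). Named were members with at least 100 UMIs, in mesenchymal cells and where their level was highest; in mesenchymal subclasses the 8 with the most UMIs and the leading member of each; and per pathway list the 2 genes with the most UMIs and the 2 with the largest ratio. Further genes were chosen after their values were seen. The members and lists were chosen with earlier results of these data known. The code was tested on simulated counts. Python 3.11.15, NumPy 2.4.6, SciPy 1.17.1, pandas 2.3.3, scikit-learn 1.9.0, leidenalg 0.10.2 and matplotlib 3.10.9 were used. In all, 17 other settings, and 2 chosen after seeing the data, were tried.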

Additional observations from a re-analysis of the deposited data

Results flagged for a closer look

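For 6 members the mutant over control log2 ratio was past 2-fold in opposite directions in different cell classes. The share of all genes that did so was not counted, so the 6 have no background to compare with. With 1 library per genotype, no difference between classes was tested. Col6a3 had 1.08 in immune cells, -1.89 in the AT1 compartment and -3.66 in airway cells. Col27a1 had 1.79 in immune cells and -2.36 in AT2-like cells. Col6a2 had 1.31 in endothelial, 1.01 in immune and -1.61 in airway cells. Col6a1 had 1.37 in endothelial and -1.07 in airway cells. Col18a1 had 2.18 in the AT1 compartment, 1.10 in endothelial and -1.98 in AT2-like cells. Col12a1 had 1.43 in immune cells and -2.12 in the AT1 compartment. Several of these values rested on few UMIs. In immune cells Col6a3 had 27 mutant and 22 control UMIs, and Col6a2 had 14 mutant and 12 control UMIs. Under other settings, given below, the direction turned for Col6a2 and Col12a1 in immune cells and for Col6a1 in airway cells. Subtracting the lymphoid level left no mutant Col6a3 in immune cells and no mutant Col6a1 or Col6a2 in endothelial cells. The negative values there came from the floor and show no direction.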

How the results depend on the processing

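Each library is 1 sample, so counting intervals leave out the spread between animals and preparations. No paired analysis was possible because each genotype has 1 library. Values below are log2 ratios of mutant over control unless given as counts or percentages. Over the alternatives, 121 values of the main summaries stayed the same and 39 moved, by limits not given here. Of the values of other results, 1095 stayed the same, 160 moved and 9 reversed, and those that only moved are not listed. Subtracting the lymphoid level as free RNA, which in the mutant rests on 5 cells, gave summed members of -4.29 in the AT1 compartment (-1.80 as reported), -1.59 in AT2-like (-0.62), -0.24 in endothelial (0.29) and 0.0153 in mesenchymal cells (0.07). It gave medians of -3.53 in the AT1 compartment (0.16 as reported) and -2.15 in AT2-like cells (-0.55). These rested on 3 and 6 members, against 13 as reported in each class. In the AT1 compartment 0 members were then 2-fold higher and 2 lower. It gave Col6a2 at -1.501 and Col6a1 at -0.38 in endothelial cells, and Col6a3 at -1.87 and Col6a2 at -0.78 in immune cells. In these 4 cases nothing was left of the mutant level, so the floor of 3 counts stood in for it. The mesenchymal share of member UMIs became 98.5% in the mutant and 95.01% in the control. Subtracting the lowest class level instead, chosen after seeing the data, gave -2.71 and 2 members 2-fold lower in the AT1 compartment, and shares of 96.6% in the mutant and 94.7% in the control. Without cycling cells the summed members were -1.45 in the AT1 compartment, 0.48 in endothelial and -0.0385 in mesenchymal cells, with 0 mesenchymal members 2-fold lower. Median gene ratio scaling gave -1.96 in the AT1 compartment, -0.84 in AT2-like and 0.0484 in mesenchymal cells. Means over cells gave -1.63 in the AT1 compartment and 0.0094 in mesenchymal cells, with 0 mesenchymal members lower. Mitochondrial counts under 5% gave -0.85 in AT2-like and 0.12 in mesenchymal cells, 1 mesenchymal member lower, and airway Col6a1 at 0.27. Clustering each library alone gave 0.0802 in endothelial cells and 1 mesenchymal member lower. Leaving the 20 most abundant genes out of totals gave 0.0889 in mesenchymal cells and 0 members lower. Equal weight of mesenchymal subclasses gave -0.11, 2 members higher, and Col22a1 at 0.495. In immune cells Col6a2 was -0.19 with collagens in the clustering and -0.19 at resolution 2, where Col12a1 was also -0.19. Keeping doublets left 1 AT1 compartment member higher. A minimum of 100 UMIs left 1 member higher in the AT1 compartment and 1 higher and 0 lower in mesenchymal cells. A minimum of 1 UMI gave 12 members lower in the AT1 compartment and 8 higher in mesenchymal cells. The cause of these shifts was not tested.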
